A study of Mus musculus with 4 samples.

Results

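The thick filament genes of ventricular muscle and the titin gene were examined in hearts with induced Tbx20 overexpression. The members were taken by name and number 10 of the 23439 genes used: Myh6, Myh7 and Myh7b for myosin heavy chains, Myl2 and Myl3 for the ventricular light chains, Mybpc3, Myom1, Myom2, Mylk3 and Ttn. All 10 were present, and all 10 passed the filter of a mean of at least 1 FPKM (a fragment count divided by transcript length and library size).

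The overexpressing hearts, called Tbx20_OE here, had the genotype alphaMHCMerCreMer+/-;CAGCATTbx20 and came from mice aged 12 weeks. The control hearts had the genotype alphaMHCMerCreMer+/- at the same age, so both groups carried the Cre transgene. MerCreMer is a Cre recombinase that tamoxifen activates, and its transgene uses the promoter of the member gene Myh6. Overexpression of the transcription factor Tbx20 was induced in cardiomyocytes at 8 weeks, and RNA was taken 4 weeks later from 2 Tbx20_OE and 2 control hearts. The labels used here do not say whether the control mice were given the inducing agent. RNA of the heart was sequenced in bulk, so fewer cells of a type and less RNA per cell cannot be told apart.

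The thick filament is a bundle of myosin molecules, each built from heavy chains with a regulatory and an essential light chain. Myosin-binding protein C wraps around the filament, myomesin links filaments to each other at the M-band, and titin runs from the Z-disc to the M-band as a spring and ruler. The adult mouse ventricle uses mainly the fast alpha heavy chain encoded by Myh6. The slow beta heavy chain encoded by Myh7 is the fetal form in the mouse, and its rise relative to Myh6 is a widely used sign of cardiac stress.

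Myh6 and Myh7 lie next to each other on the minus strand of chromosome 14 in mm10, Myh6 from 54941921 to 54966607 and Myh7 from 54970688 to 54994549. Each heavy chain gene of the set carries a microRNA gene in an intron, and these sequences are shown because they tie the heavy chain genes to each other. The mature forms from RefSeq (GRCm38.p6) are printed 5′ to 3′ with the seed, bases 2 to 8, in capitals.
mmu-miR-208a-3p: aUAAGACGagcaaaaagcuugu
mmu-miR-208b-3p: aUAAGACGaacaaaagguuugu
mmu-miR-499-5p: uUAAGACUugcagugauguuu
The microRNAs of Myh6 (miR-208a) and Myh7 (miR-208b) share the whole seed UAAGACG, and miR-499 of Myh7b shares bases 2 to 7 of it. None of these 3 mature sequences overlapped an exon of the host transcript in GENCODE M21. The entries Mir208a, Mir208b and Mir499 were listed at 0 FPKM in all 4 libraries. An exact 0 in such a table can be a failed estimate, so no level is given for them.

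The stretches of 250 bases before the start of Myh6 and Myh7 are shown because the first is the promoter of the Cre driver's gene and the ratio of these genes is described below. They are from RefSeq (GRCm38.p6), minus strand, at chr14:54966608-54966857 for Myh6 and chr14:54994550-54994799 for Myh7. In GENCODE M21 the Myh6 gene reaches to 54966927 and Myh7 to 54994626, so the windows depend on the annotation used for the start. Capitals mark the MCAT motif CATTCC on either strand.
Myh6 promoter: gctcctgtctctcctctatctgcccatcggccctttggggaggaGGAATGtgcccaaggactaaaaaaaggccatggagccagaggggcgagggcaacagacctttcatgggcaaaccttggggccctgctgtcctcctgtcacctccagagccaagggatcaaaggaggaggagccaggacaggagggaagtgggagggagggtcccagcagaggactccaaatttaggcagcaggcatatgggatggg
Myh7 promoter: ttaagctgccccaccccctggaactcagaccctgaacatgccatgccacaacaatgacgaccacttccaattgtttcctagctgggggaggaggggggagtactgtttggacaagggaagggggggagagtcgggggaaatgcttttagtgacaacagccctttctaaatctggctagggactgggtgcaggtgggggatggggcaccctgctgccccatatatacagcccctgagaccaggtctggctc
The T-box core AGGTGT was searched on both strands in the same window of the 8 members that had an entry, and 0 of 8 held it, against 11.9% of 32536 promoter windows. The MCAT motif CATTCC was in 3 of the 8 windows (Myh6, Myl3 and Mylk3) against 12.6% of all windows, and the GATA motif AGATAA in 2 of 8 (Myh7b and Myom1) against 9.97%. These motifs do not overlap each other in letters, and a match describes the letters of the window only. Only these exact letters were searched, so other spellings of a motif were not counted, and a window without a match can hold them.

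The targeted gene lay above the controls in both Tbx20_OE libraries: Tbx20 was at 11.03 and 16.4 FPKM in Tbx20_OE and at 6.99 and 4.58 FPKM in control. On the log2 scale this is a fold change of 1.11 (standard error 0.30), which missed the threshold once adjusted (limma adjusted p = 0.848). Control replicate 2 resembled the rest least, with Pearson correlations on the log2 scale of 0.927 to 0.957 with them against 0.981 to 0.982 among the others. Of 7 atrial muscle markers 6 were highest in that library. The summed level of the 7 there was 3758 FPKM, against 143 to 254 FPKM in the other 3. Most of the sum in those 3 was Nppa, at 228 and 131 FPKM in Tbx20_OE and 126 FPKM in control replicate 1. Myl7 was at 4.77, 0.107 and 0.0536 FPKM in the same libraries, and at 958 FPKM in control replicate 2. In Tbx20_OE replicate 2, Sln and Mybphl of that list were at 0. In control replicate 2 the 4 mesothelium markers summed to 25.4 FPKM, against 1.97 to 2.23 FPKM in the other 3 libraries. The labelled tissue is the whole heart, so atrial muscle can be part of a sample. Red cell markers summed to 575 and 157 FPKM in Tbx20_OE and 38.0 and 1178 FPKM in control. The 10 cardiomyocyte markers summed to 45690 and 40070 FPKM in Tbx20_OE and 39921 and 38812 FPKM in control. One by one, 6 of these 10 were lowest and 3 highest in control replicate 2. Of 5 endothelium markers 4 were lowest in that library, where 54.2% of all tested genes were lowest. What share of the differences below comes with the atrial and mesothelial signal was not tested. The fold change of each member is therefore also given without control replicate 2, with control replicate 1 then the lone control.

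For none of the 10 genes was the difference between the groups large enough, against the spread of the libraries, to pass the test. By limma over 10513 genes, 0 of 10 passed at an adjusted p under 0.05 (adjusted p from 0.848 to 0.969) and 0 of 10 had an unadjusted p under 0.05. Over all genes tested, 0.019% passed in either direction (2 higher, 0 lower) and 1.52% had an unadjusted p under 0.05. For 0 of 10 members did the libraries of one group lie apart from those of the other, against 32.8% of all genes. The log2 fold change was above 0 for 7 members and below 0 for 3, with a median of 0.09, beside a median of 0.15 over all genes, of which 71.1% were above 0. With that general shift removed by median centring, which moved each value by 0.16, 4 members were above 0 and 6 below.

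**Figure D1:**
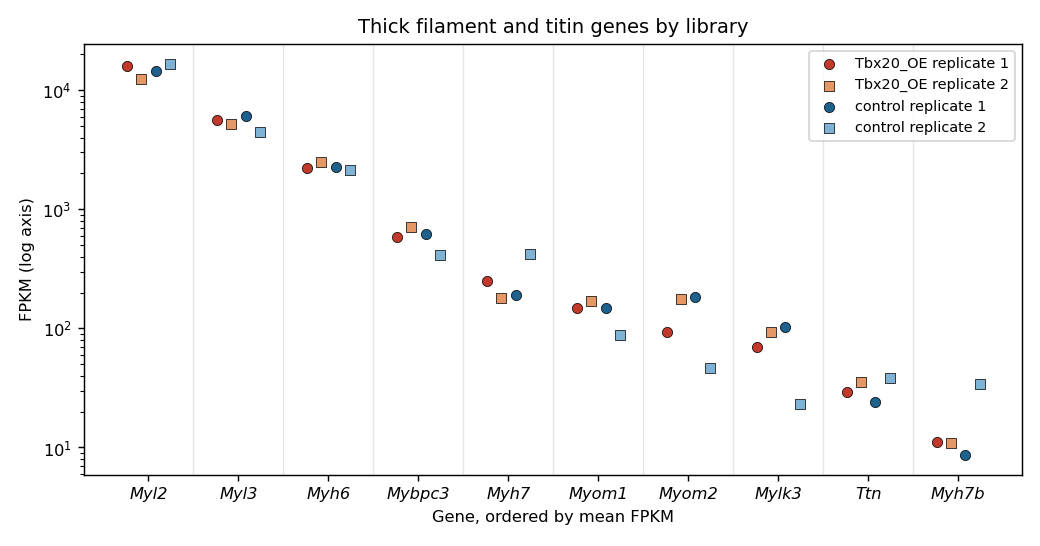
FPKM on a log axis of each member in the 4 libraries, with the Tbx20_OE libraries left of the control libraries and genes ordered by mean level. Control replicate 2 holds the highest or the lowest value of each of the 10 genes, and the Tbx20_OE and control values overlap for every gene.

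The set spans a wide range of levels per length. The regulatory light chain gene Myl2 was the most abundant of all genes in every library, ranked 1 in each. The 4 members with the highest means, Myl2, Myl3, Myh6 and Mybpc3, kept that order among themselves in each library, and their ranges over the 4 libraries did not overlap. From Mybpc3 down, the ranges of neighbours in the order of means overlapped for Mybpc3 with Myh7, Myom1 with Myom2, Myom2 with Mylk3, Mylk3 with Ttn, and Ttn with Myh7b. Those of Myh7 and Myom1 did not, with a lowest Myh7 value of 181 FPKM and a highest Myom1 value of 169 FPKM. Together the 10 genes made up 4.87% and 4.75% of the summed FPKM in Tbx20_OE and 5.08% and 4.99% in control. Multiplying FPKM by the length in kilobases of the longest coding transcript in GENCODE M21 gives a level per gene, not per length. On that scale the 10 genes summed to 41588 and 41304 in Tbx20_OE and 40767 and 41528 in control. The total lay in that range in all 4 hearts while its make-up varied. On the same scale Ttn, with a transcript of 106824 bases and 347 exons, had a level of 3103 and 3763 in Tbx20_OE and 2566 and 4084 in control, more than Mybpc3 in each library except control replicate 1, where they were nearly equal.

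Myh6, the alpha heavy chain gene, was the steadiest member. It was at 2202 and 2500 FPKM in Tbx20_OE, against 2244 and 2130 FPKM in control. The groups overlapped, and the highest library exceeded the lowest by 1.17-fold. The log2 fold change was 0.10 (standard error 0.26, limma adjusted p = 0.928), with 0.06 without control replicate 2 and -0.06 after median centring.

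Myh7, the beta heavy chain gene, was at 248 and 181 FPKM in Tbx20_OE, against 192 and 419 FPKM in control. Control replicate 2 was high, and control replicate 1 lay between the 2 Tbx20_OE libraries. The mean was 214 ± 47.7 FPKM in Tbx20_OE and 306 ± 161 FPKM in control (SD, n = 2 each). The Myh7 log2 fold change was -0.42 (standard error 0.44, limma adjusted p = 0.848), and without control replicate 2 it was 0.14, in the other direction.

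The ratio of Myh7 to Myh6, a ratio of levels per length, was 0.113 and 0.0723 in Tbx20_OE, against 0.0856 and 0.197 in control. Its mean was 0.0925 ± 0.0286 in Tbx20_OE and 0.141 ± 0.0787 in control (SD, n = 2 each). Again control replicate 2 was high and control replicate 1 lay between the Tbx20_OE libraries. The difference of mean log2 ratios, Tbx20_OE minus control, was -0.52, with an exact two-sided permutation p = 0.667. An exact test of 2 libraries against 2 cannot go below 0.33, and 10 ratios were computed, with a Benjamini-Hochberg adjusted p of 1 for each. Without control replicate 2 the difference was 0.08, and without control replicate 1 it was -1.13. Myh7 made up 10.1% and 6.74% of the summed Myh6 and Myh7 level in Tbx20_OE and 7.89% and 16.4% in control. The summed level itself was 2450 and 2680 FPKM in Tbx20_OE and 2436 and 2549 FPKM in control.

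These heavy chain values carry limits of read assignment. Of the windows of 50 bases along the Myh6 transcript 22.6% also occur in the Myh7 transcript, and 11.4% of windows of 100 bases. The read length is not given in the sources used here, and reads from shared stretches can be assigned to either gene. No other pair among the 10 members shared a window of 50 bases. Mhrt, a long noncoding RNA transcribed from the opposite strand, spans 54968678 to 54974349 in GENCODE M21 and overlaps the 3′ part of Myh7. The antisense genes Gm29015 and Gm31251 of that release also overlap Myh7. Without a stated strand setting, reads of Myh7 and Mhrt cannot be told apart where they overlap. Mhrt, listed under its older symbol D830015G02Rik, was at 121 and 79.9 FPKM in Tbx20_OE, against 88.4 and 283 FPKM in control, with the high value in the same library as for Myh7. The ratio of Mhrt to Myh7 was 0.486 and 0.442 in Tbx20_OE, against 0.460 and 0.674 in control.

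**Figure D2:**
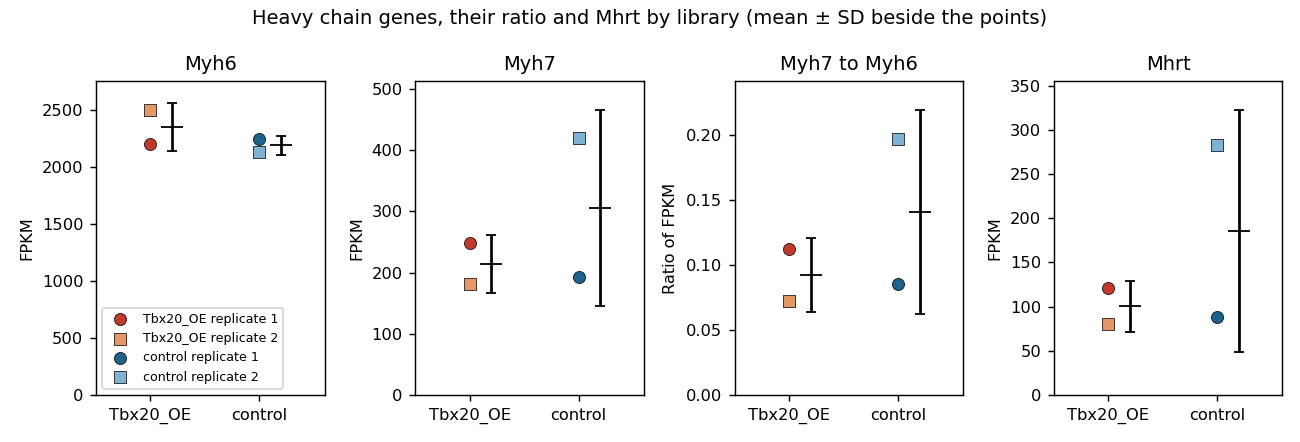
FPKM of Myh6, Myh7 and Mhrt and the ratio of Myh7 to Myh6 in each library, with Tbx20_OE left of control and the mean and SD (n = 2) beside the points. Myh6 lies between 2130 and 2500 FPKM throughout, while Myh7, Mhrt and the ratio are highest in control replicate 2. In the other 3 libraries Myh7 spans 181 to 248 FPKM, Mhrt 79.9 to 121 FPKM and the ratio 0.0723 to 0.113. Both ends of each of these spans are Tbx20_OE libraries.

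Myh7b is another heavy chain gene, known mainly as the host of miR-499, on chromosome 2 from 155611243 to 155634307. It was at 11.1 and 11.0 FPKM in Tbx20_OE, against 8.61 and 33.8 FPKM in control. The Tbx20_OE libraries were nearly equal, with control replicate 1 below them and control replicate 2 far above. The Myh7b log2 fold change was -0.60 (standard error 0.60, limma adjusted p = 0.848), and 0.32 without control replicate 2. Control replicate 2 exceeded control replicate 1 by 3.93-fold for Myh7b and by 2.18-fold for Myh7.

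The light chain genes spanned at most 1.37-fold over the 4 libraries. Myl2, whose product is phosphorylated by the kinase encoded by Mylk3, was at 15917 and 12426 FPKM in Tbx20_OE, against 14383 and 16732 FPKM in control (log2 fold change -0.14, standard error 0.29, limma adjusted p = 0.907). Myl3, the ventricular essential light chain gene, was at 5631 and 5192 FPKM in Tbx20_OE, against 6109 and 4470 FPKM in control (log2 0.05, standard error 0.30, limma adjusted p = 0.969). In both genes the Tbx20_OE and control ranges overlapped. Without control replicate 2 the log2 fold change of Myl2 was -0.03. The sign for Myl3 turned after median centring (-0.11) and without control replicate 2 (-0.18). The ratio of Myl2 to Myl3 was 2.83 and 2.39 in Tbx20_OE, against 2.35 and 3.74 in control. Myl2 was at 6.50 and 4.64 times the summed heavy chain level in Tbx20_OE and at 5.90 and 6.56 times in control. Myl7, the atrial counterpart of Myl2, was at 4.77 and 0.107 FPKM in Tbx20_OE, against 0.0536 and 958 FPKM in control, and in control replicate 2 it came to 5.73% of the Myl2 level.

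Mylk3, the cardiac myosin light chain kinase gene on chromosome 8 from 85324929 to 85365324, varied most among the members. It was at 70.2 and 93.0 FPKM in Tbx20_OE, against 103 and 23.2 FPKM in control, a 4.44-fold gap between the control hearts. Control replicate 1 was the highest library and control replicate 2 the lowest. The Mylk3 log2 fold change was 0.71 (standard error 0.68, limma adjusted p = 0.848), and -0.35 without control replicate 2. Among the 3 other libraries the highest exceeded the lowest by 1.47-fold.

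The M-band genes Myom1 and Myom2 encode myomesins. Myom1 was at 147 and 169 FPKM in Tbx20_OE, against 148 and 88.8 FPKM in control (log2 0.45, standard error 0.33, limma adjusted p = 0.848). The fold change was 0.08 on the log2 scale without control replicate 2. Myom2, on chromosome 8 from 15057653 to 15133419, was at 93.9 and 176 FPKM in Tbx20_OE, against 185 and 46.6 FPKM in control (log2 0.46, standard error 0.69, limma adjusted p = 0.875). Here Tbx20_OE replicate 1 was low as well, so the libraries within each group lay apart, and without control replicate 2 the value was -0.52. The ratio of Myom2 to Myom1 was 0.639 and 1.04 in Tbx20_OE, against 1.24 and 0.524 in control.

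Mybpc3, the cardiac myosin-binding protein C gene on chromosome 2 from 91118144 to 91136516, was at 581 and 712 FPKM in Tbx20_OE, against 617 and 413 FPKM in control. The other 3 libraries lay close together and control replicate 2 was low. The log2 fold change of Mybpc3 was 0.35 (standard error 0.32, limma adjusted p = 0.848), and 0.06 without control replicate 2. Relative to the summed heavy chain level Mybpc3 was at 0.237 and 0.266 in Tbx20_OE, against 0.253 and 0.162 in control. Its profile over the libraries was closest to that of Myom1, with a Euclidean distance of 0.165 between log2 profiles centred on their means, the smallest of all pairs of members.

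Ttn, the titin gene on chromosome 2 from 76703984 to 76982547, was at 29.0 and 35.2 FPKM in Tbx20_OE, against 24.0 and 38.2 FPKM in control. Both Tbx20_OE libraries lay between the control libraries. The Ttn log2 fold change was 0.07 (standard error 0.30, limma adjusted p = 0.955), 0.40 without control replicate 2 and -0.25 without control replicate 1. It was -0.09 after median centring, so no direction can be given. One FPKM value per gene covers all titin isoforms, and their balance was not analysed here.

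Control replicate 2 held the highest value for 4 members (Myh7, Myh7b, Myl2 and Ttn) and the lowest for the other 6, where 54.2% of all tested genes were lowest. So 10 of 10 members had an extreme value there, against 79.8% of all tested genes. The same count was 0 of 10 in Tbx20_OE replicate 1 (27.9% of all genes), 5 of 10 in Tbx20_OE replicate 2 (55.9%) and 5 of 10 in control replicate 1 (36.3%). Relative to the mean of the other 3 libraries on the log2 scale, it lay at -1.87 for Mylk3, -1.62 for Myom2, -0.79 for Myom1, -0.62 for Mybpc3, 1.03 for Myh7 and 1.64 for Myh7b. Across the 10 members this deviation had a Spearman rho of 0.26 with the GC content of the transcript and 0.54 with its length, and across 10029 tested genes 0.45 and -0.21. These values describe genes measured in the same libraries, which are not independent replicates. Of the members lowest in control replicate 2, the GC content was 50.4% for Mylk3, 50.7% for Myom1 and 51.8% for Myom2. It was 55.4% for Myl3, 56.4% for Myh6 and 56.55% for Mybpc3. Of those highest there, it was 47.4% for Ttn, 50.3% for Myl2, 56.2% for Myh7 and 59.2% for Myh7b. Whether GC content or length plays a part in the deviation was not tested.

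Leaving out a control library changed the values of the members. Without control replicate 1, where control replicate 2 is the lone control and its spread is taken from the Tbx20_OE hearts, 3 of 10 members passed: Myh7b was lower (log2 -1.53, limma adjusted p = 0.0129), Mylk3 was higher (1.76, adjusted p = 0.0161) and Myom2 was higher (1.45, adjusted p = 0.0436). In that fit 9 of 10 members kept the sign they had with all libraries, Ttn being the exception, and 13.6% of all genes passed, 1195 higher and 238 lower. Without control replicate 2, 0 of 10 members passed, against 0.209% of all genes, and each of those 3 members had the opposite sign. With a Tbx20_OE library left out 0 of 10 members passed as well, against 0.105% of all genes without replicate 1 and 0.0571% without replicate 2. Without control replicate 2 only 5 of the 10 members kept the sign of the whole comparison: Myh6, Myl2, Mybpc3, Myom1 and Ttn. The median size of the log2 difference among members, 0.39 over all libraries, was then 0.16, beside 0.21 and 0.13 over all genes.

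**Figure D3:**
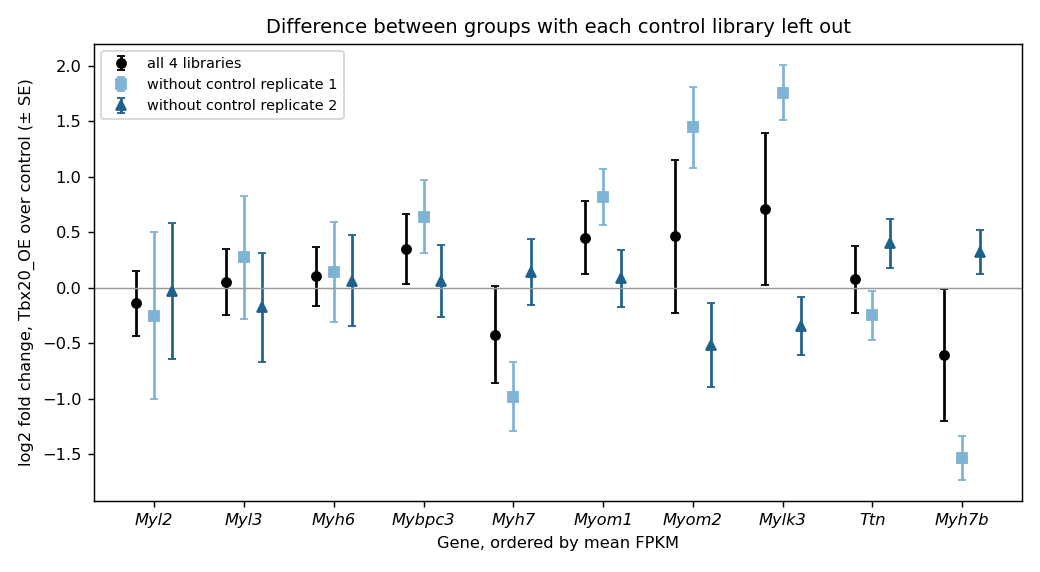
Log2 fold change of each member, Tbx20_OE over control, with its standard error from limma, for all 4 libraries and with each control library left out. Myh7, Myh7b, Mylk3, Myom2, Myl3 and Ttn change sign depending on which control library is kept.

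The authors' deposited table of their own comparison gives a value for 9 of the 10 members. It called none of them, with q = 0.999 for each of the 9. In the authors' deposited table Myh6 was listed at 0 FPKM in both conditions with the status HIDATA, which cuffdiff gives to loci with too many fragments, and 4 entries had that status. No Myh7 to Myh6 ratio can therefore be formed from that table. In the authors' deposited table Myh7 was at 413 FPKM in Tbx20_OE and 572 FPKM in control (p = 0.324), and Myh7b was at 18.6 and 32.6 FPKM (p = 0.20). Mhrt was at 124 FPKM in Tbx20_OE and 240 FPKM in control there (p = 0.735 in the authors' deposited table), with a locus that also spans Myh7. The authors' deposited table had Ttn lower in Tbx20_OE, at 55.4 FPKM against 63.9 FPKM in control (p = 0.672). Its FPKM scale differs from that of the values per library.

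The gene lists that follow were chosen with earlier results of these data known, so their shares beside all genes only describe them. Of 14 genes for other sarcomeric myosins and myosin-binding proteins, 5 were expressed enough to be tested, and by limma 0 passed in either direction. Myh4, an adult skeletal heavy chain gene, was listed at 0 FPKM in all 4 libraries, which can be a failed estimate. Myl1, a light chain gene of fast skeletal muscle, was at 68.7 and 67.5 FPKM in Tbx20_OE, against 65.1 and 121 FPKM in control. Its log2 fold change was -0.38 (standard error 0.35), and 0.06 without control replicate 2. Mybpc2, the fast skeletal form of myosin-binding protein C, was at 4.41 and 5.45 FPKM in Tbx20_OE, against 3.21 and 3.01 FPKM in control (log2 0.52, standard error 0.20, adjusted p = 0.848). Its groups did not overlap, 1 of 5 genes upward against 28.1% of all genes, and the value without control replicate 2 was 0.49. For 1 of 5 the groups lay apart downward, against 4.77% of all genes. This was Mybphl, at 0.119 and 0 FPKM in Tbx20_OE, against 0.267 and 69.4 FPKM in control. The atrial genes Myl4, Myl7 and Mybphl were highest in control replicate 2, with 605 FPKM for Myl4 there and 4.30, 0.859 and 1.17 FPKM in the Tbx20_OE libraries and control replicate 1. The median log2 fold change of the 5 genes was -3.16, and 0.49 without control replicate 2.

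Genes for partners of titin and the M-band, 16 of 18 tested, had 0 passing in either direction by limma. For 5 of them each Tbx20_OE value exceeded each control value and for 1 the reverse held, against 28.1% and 4.77% of all genes. Ankrd1, which encodes a stretch-responsive protein bound to the N2A region of titin, was at 415 and 688 FPKM in Tbx20_OE, against 240 and 164 FPKM in control (log2 1.42, standard error 0.37, limma adjusted p = 0.848). Its relative Ankrd23 was at 84.9 and 162 FPKM in Tbx20_OE, against 80.4 and 59.6 FPKM in control. Fhl2, whose product binds the N2B region of titin, was at 1014 and 1021 FPKM in Tbx20_OE, against 960 and 469 FPKM in control. Fhl1, of the same family of LIM proteins, was at 58.1 and 58.7 FPKM in Tbx20_OE, against 50.8 and 44.1 FPKM in control. The fold change of Ankrd1 was 1.15 on the log2 scale without control replicate 2, that of Ankrd23 0.54 and that of Fhl2 0.08. The median of the list was 0.28, and 0.03 without control replicate 2.

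Genes for myosin folding and assembly, 7 of 7 tested, had a median below 0. By limma 0 passed, and for 3 of the 7 the Tbx20_OE values were all under the control values, against 4.77% of all genes. For 1 each Tbx20_OE value exceeded each control value, against 28.1% of all genes. The list was chosen with earlier results of these data known, so these shares are a description only. Unc45b, a chaperone for the folding of the myosin head, was at 38.2 and 41.8 FPKM in Tbx20_OE, against 59.9 and 47.8 FPKM in control (log2 -0.41, standard error 0.25, limma adjusted p = 0.848). Hsp90aa1, its partner chaperone, was at 56.4 and 51.2 FPKM in Tbx20_OE, against 93.3 and 75.5 FPKM in control (log2 -0.63, standard error 0.25, limma adjusted p = 0.848). Stip1, a co-chaperone of Hsp90, was at 38.5 and 35.4 FPKM in Tbx20_OE, against 49.4 and 44.6 FPKM in control. For these 3 genes control replicate 1 was the higher control. Without control replicate 2, where it is the lone control, the log2 values therefore lay further below 0, at -0.57, -0.78 and -0.41. The list median was -0.13, and -0.41 without that library. Smyd2, a methyltransferase bound to titin, was at 67.1 and 68.5 FPKM in Tbx20_OE, against 63.6 and 32.2 FPKM in control.

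Kinase and phosphatase genes that act on the thick filament, 13 of 15 tested, had 0 passing by limma, and 12 had a fold change above 0. Over all genes 71.1% were above 0. Of the 13, 11 were lowest in control replicate 2, against 54.2% of all genes. Ppp1cb, the catalytic subunit of myosin phosphatase, was at 33.5 and 50.1 FPKM in Tbx20_OE, against 41.7 and 13.3 FPKM in control. Prkacb, a catalytic subunit of protein kinase A, was at 9.29 and 12.4 FPKM in Tbx20_OE, against 7.42 and 5.10 FPKM in control (log2 0.71, standard error 0.27, limma adjusted p = 0.848). Prkacb was the only tested gene of the list whose groups did not overlap, 1 of 13 against 32.8% of all genes. Mylk4, a kinase of the same family as Mylk3, was at 29.2 and 42.3 FPKM in Tbx20_OE, against 36.0 and 14.0 FPKM in control. Prkaca, another catalytic subunit of protein kinase A, was at 91.4 and 100.4 FPKM in Tbx20_OE, against 92.7 and 80.4 FPKM in control. The median of the list was 0.32, and -0.0018 without control replicate 2, where 6 of 13 were above 0.

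Regulators of the heavy chain genes, 15 of 20 tested, likewise had 0 passing by limma, with 3 of 15 whose groups lay apart upward (28.1% of all genes) and 1 downward (4.77%). Med13, a Mediator subunit and known target of miR-208a, was at 2.12 and 2.65 FPKM in Tbx20_OE, against 1.92 and 1.39 FPKM in control. Tbx5, a T-box factor that activates cardiac genes, was at 2.07 and 2.60 FPKM in Tbx20_OE, against 2.78 and 3.78 FPKM in control. Pura, a repressor that binds the Myh6 gene, was at 2.63 and 3.03 FPKM in Tbx20_OE, against 2.61 and 1.45 FPKM in control. Sp3, a Sp family factor that binds GC boxes, had 5.41 and 5.96 FPKM in Tbx20_OE, against 5.12 and 3.38 FPKM in control. The median of the list was 0.29, and 0.11 without control replicate 2. Of the titin splicing factor list 8 of 8 genes were tested, 0 passed by limma, and 8 had a fold change above 0 (71.1% of all genes), with a median of 0.24 that was 0.09 without control replicate 2. Rbm20, the main regulator of titin splicing, was at 17.4 and 21.8 FPKM in Tbx20_OE, against 15.6 and 20.5 FPKM in control, and the groups overlapped. Mbnl1, a splicing regulator, was at 21.2 and 18.7 FPKM in Tbx20_OE, against 16.6 and 12.6 FPKM in control. For 3 of the 8, Mbnl1 and the splicing regulators Ptbp1 and Rbfox2, each Tbx20_OE value exceeded each control value, against 28.1% of all genes. Ptbp1 and Rbfox2 had log2 fold changes of 0.15 and 0.31. Rbm24, a muscle splicing factor, had overlapping groups and a log2 fold change of 0.03.

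**Figure D4:**
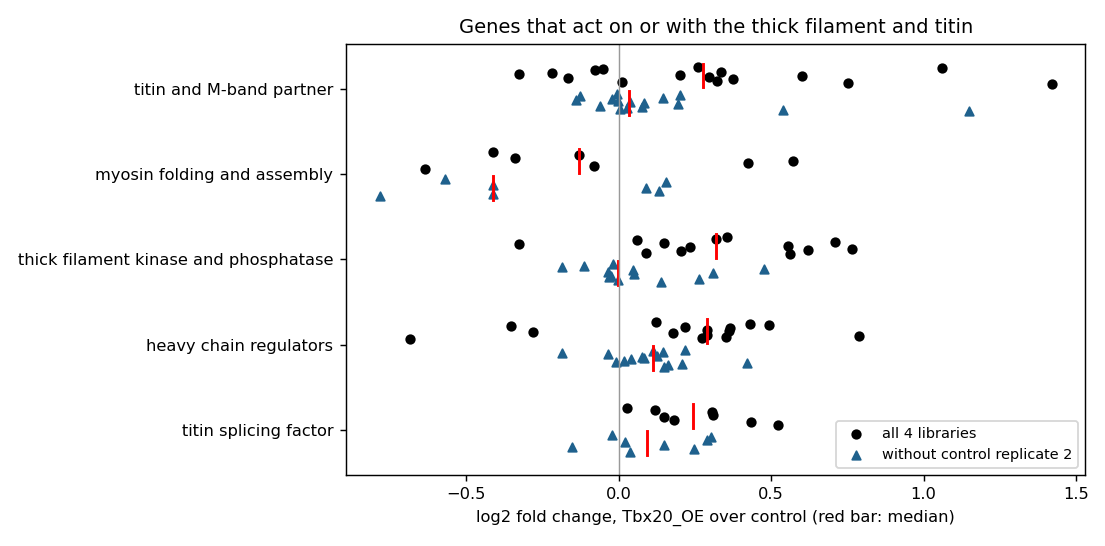
Log2 fold change of each tested gene in 5 lists, Tbx20_OE over control, for all 4 libraries and without control replicate 2, with red bars at the medians. Without control replicate 2 the medians lie at 0.03, -0.41, -0.0018, 0.11 and 0.09 from the top list to the bottom one.

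The genes whose profile over the 4 libraries was most like that of Myh7, among 3901 genes with a mean of at least 10 FPKM, were Tceb2, Bola2 and Speg, at Euclidean distances of 0.0502, 0.0941 and 0.0957 between centred log2 profiles. Speg, for example, was at 23.6 and 16.1 FPKM in Tbx20_OE, against 17.4 and 42.1 FPKM in control. Those most like Ttn were Rgcc, Snhg3 and Pam, at 0.0677, 0.0962 and 0.106. With 4 libraries many genes match a profile closely, so these names are a description only.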

How the data were processed

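RNA from 4 hearts was sequenced, and groups were taken from the genotype labels. TopHat2 2.0.13, Cufflinks 2.1.1 and mm10 are named in the submitters' processing notes; annotation release, read length and strand setting are not stated there or in the labels. Each library's FPKM values per gene were deposited by the authors, without counts, so depth is unknown and limits the precision to an unknown degree. Low FPKM values showed no steps of whole reads. The authors also deposited quantile-normalized FPKM. The authors' deposited comparison holds FPKM with a p-value and a q-value per gene, made with cuffdiff 2.1.1, per the file headers.

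Values were analysed as log2(FPKM + 1), a scale that understates the change of low genes, for the 10513 genes with a mean of at least 1 FPKM. Limma 3.58.1 (R 4.3.3, trended prior variance) was fitted with group as the only term and Benjamini-Hochberg adjustment over all genes at 0.05, and was checked on simulated data. Left out were 4 genes with a failed estimate and 1 absent from the files per library, and where a symbol had several entries the one of highest mean was used. Summed FPKM was between 452733 and 512225 per library. Starts are file positions plus 1. Ratios were tested by exact permutation over libraries. The list genes Mhrt and Adgre1 were matched by older symbols, Mhrt also by position. Named genes were the 10 members, up to 4 per list (smallest unadjusted p among genes whose groups lay apart, then highest mean), and the 3 most alike to Myh7 and to Ttn. Rbm20, Myh4 and Myl1 were named after their values were seen. Members and lists were chosen with earlier results of these data known. Alternatives covered pseudocounts of 0.1 and 0.5, the filter, scaling, source table, trend, leaving out each library and a replicate block. Each library is from 1 heart, per the labels' protocols. Further tools were scipy 1.17.1 under Python 3.11.15, with pandas 2.3.3 for tables.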

Additional observations from a re-analysis of the deposited data

How the results depend on the processing

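Depth is unknown, and 2 libraries a group leave the spread poorly known, so differences of the size seen in these genes could not be told from it. Over all genes 2 passed in the main comparison, 1 with a pseudocount of 0.1, 1 without a filter, 1 with the files of the single libraries and between 6 and 1433 with a library left out. With the replicate number as a replicate block 6 passed, but the labels do not say that equal numbers pair hearts, and same-numbered libraries deviated in opposite directions (r = -0.45 across genes). The crossed replicate block, chosen after seeing the data, gave 30. Of the 10 members 0 passed under each of these settings except with a library left out, where 0 to 3 passed. The log2 ratio difference of Myh7 to Myh6 was -0.52 with the block too, which cannot change a difference of group means in this design. It was -0.69 with quantile-normalized values. With a library left out it ran from -1.13 to 0.0759, above 0 only without control replicate 2. Changing the filter, the trend or the block, or using the files of the single libraries, left each member's fold change the same. In those settings only the side of the threshold could change, and the other pseudocounts moved the fold changes little. Across 10 settings that left no library out, 95 of 100 member values kept their sign and side of the threshold. The exceptions were Myl2, at exactly 0 with quantile-normalized values, Myh6 (-0.0588), Myl3 (-0.11) and Ttn (-0.0861) after median centring, and Ttn (-0.0805) with quantile-normalized values. With a library left out the log2 fold change ran from -0.98 to 0.14 for Myh7, -1.53 to 0.32 for Myh7b, -0.32 to 0.0371 for Myl2, -0.18 to 0.27 for Myl3, -0.35 to 1.76 for Mylk3, -0.52 to 1.45 for Myom2 and -0.25 to 0.40 for Ttn. It stayed above 0 for Myh6, Mybpc3 and Myom1. The cause of these changes was not tested.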
